A study of Mus musculus with 4 samples.

Results

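The 9 genes described here are Pla2g4a, Ptgs1, Ptgs2, Ptges, Ptges2, Ptgis, Ptger4, Hpgd and Anxa1, which make, sense and break down prostaglandins or, in the case of Anxa1, are tied to their control. They were taken by gene symbol from a table of 23282 genes, and all 9 were found, each in 1 row. RNA bound to chromatin was sequenced from C2C12 myotubes, the multinucleated cells formed by an established mouse myoblast line that the labels give as female. Steroids had been withdrawn from all cultures before they received, for 2 h, vehicle or the synthetic glucocorticoid dexamethasone at 1 µM. There were 2 libraries per group, numbered 1 and 2 in each, and the design holds this 1 cell line only. The labels do not say that the libraries came from separate cultures, so p-values measure the spread between these libraries, which may be technical. That spread includes differences between the replicate numbers, which correlated between the groups (r = 0.734 across tested genes).

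Prostaglandins are short-lived lipid signals. Cytosolic phospholipase A2 releases arachidonic acid from membranes, the cyclooxygenases turn it into an unstable intermediate, and a terminal synthase converts that into prostaglandin E, prostacyclin or another product, which leaves the cell and binds a receptor. Ptgs1 is usually described as the steadily expressed cyclooxygenase and Ptgs2 as the inducible one. Glucocorticoids are widely known to lower Ptgs2 and to raise annexin A1, once called lipocortin, in many cell types, and prostaglandins in muscle are known for effects on myoblast fusion and repair.

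The libraries held between 19631435 counts in vehicle replicate 1 and 88596296 in dexamethasone replicate 2. Levels are given as CPM, counts brought to a common library total and scaled by TMM, a factor that corrects for differences in library make-up. The treatment check was Fkbp5, a glucocorticoid target that encodes a co-chaperone of the receptor. It stood at 21.5 and 21.6 CPM with vehicle and at 1020 and 697 with dexamethasone. In all 6 reference genes of the response the dexamethasone libraries lay above the vehicle libraries, as in 15.0% of all tested genes. Of the 6, only Fkbp5 had an edgeR adjusted p under 0.05 (0.0429). Dusp1 was higher by only 1.23-fold (log2 fold change 0.295, SE 0.186). All 8 myotube markers were present. Their summed level was 123000 and 119000 CPM in the replicate 1 libraries against 43200 and 42000 in the replicate 2 libraries, most of it from Ttn. Summed levels of the markers of other cell types were far lower. In both vehicle libraries Pax7 and Col1a1 nonetheless stood above Ptgs2, Col1a1 at 24.3 and 47.4 CPM and Ptgs2 at 22.6 and 21.3. The 8 macrophage and leukocyte markers summed to between 5.14 and 7.74 CPM. Of these, Cd68 had 2.92 to 3.87 CPM and Itgam 2.06 to 3.70, with Ptprc at 1 count or fewer in every library and C1qa listed at 0. The 6 endothelial markers summed to between 7.74 and 10.2 CPM and the 5 adipocyte markers to at most 0.21 CPM. The 7 fibroblast markers summed to 39.2 and 59.8 CPM with vehicle and to 36.8 and 33.9 with dexamethasone, with Lum and Thy1 listed at 0. The 6 markers of unfused or dividing myoblasts summed to 56.7 and 61.3 CPM with vehicle and to 42.0 and 49.9 with dexamethasone, with Pax7 the highest of them in each library. Both sums were lower in both dexamethasone libraries, as were Ptgs2 and Pla2g4a below, but not in every marker. In the myoblast list Pax7 alone was lower, at 17.9 and 22.9 CPM against 32.0 and 39.0 with vehicle, and the other 5 markers had a positive log2 fold change. In the fibroblast list Col1a1, Dcn and Dpt were lower in both dexamethasone libraries, and Pdgfra was higher in both (log2 fold change 1.04, SE 0.278, edgeR adjusted p of 0.503). The part of these markers in the values of Ptgs2 and Pla2g4a was not tested.

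Among the 9 genes, Ptgis, Pla2g4a, Anxa1 and the cyclooxygenase genes had the highest levels in the vehicle libraries. Since the deposited table does not say whether introns were counted, levels between genes were compared both per kilobase of exon and per kilobase of gene. Per kilobase of exon the order in vehicle was Ptgis, with 18.8 and 38.8 CPM per kb in vehicle 1 and 2, then Pla2g4a with 17.8 and 14.2, Anxa1 with 13.1 and 10.6, and Ptgs1 with 8.34 and 10.7. Below these stood Ptgs2 with 4.94 and 4.65 CPM per kb of exon, Ptges2 with 1.24 and 1.19, Ptger4 with 0.775 and 1.13, Hpgd with 0.797 and 0.391, and Ptges with 0.0136 and 0.0804. Anxa1 and Ptgs1 overlapped between the vehicle libraries on this scale, as did Ptger4 and Hpgd, while the other neighbours in the order did not. Per kilobase of gene Ptgs2 came first, at 2.76 and 2.60 CPM per kb, and Pla2g4a, whose gene is long, stood at 0.864 and 0.689. On that scale Anxa1 (2.17 and 1.76), Ptgs1 (1.48 and 1.90) and Ptgis (0.989 and 2.04) overlapped. Ptges2, Ptger4, Hpgd and Ptges were the lowest 4 on both scales.

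**Figure D1:**
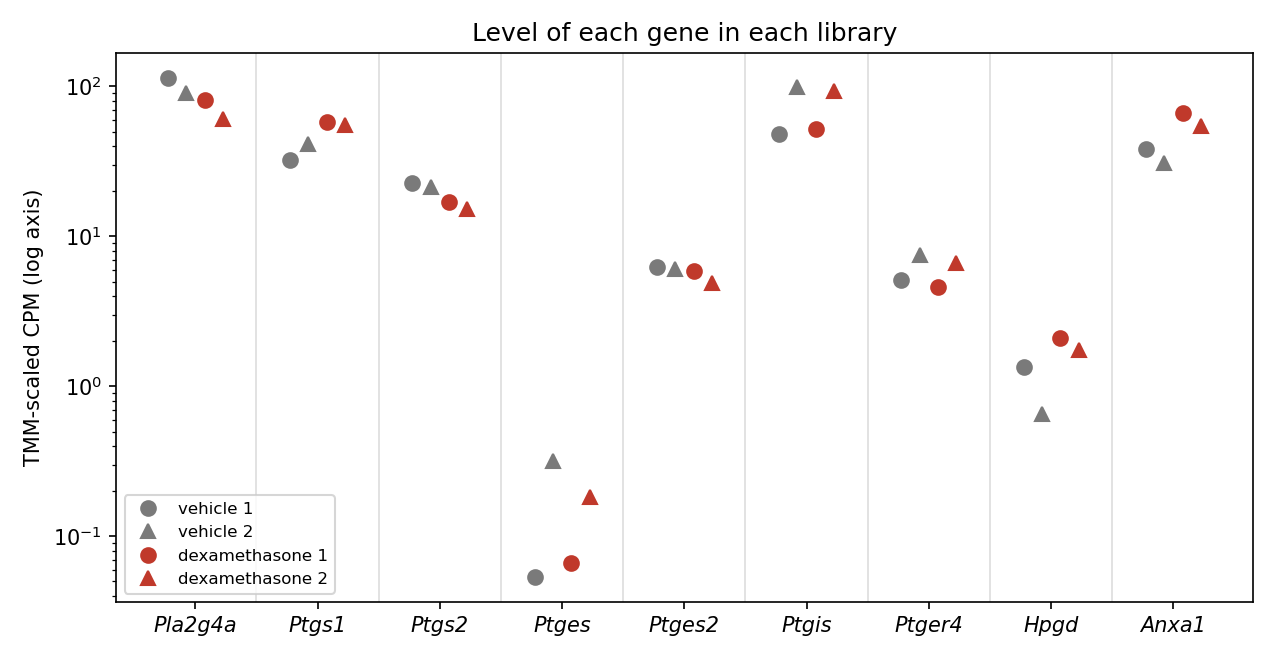
Level of the 9 genes in each of the 4 libraries, in TMM-scaled CPM on a log axis. Each point is 1 library (grey for vehicle, red for dexamethasone, circles for replicate 1 and triangles for replicate 2). Both red points lie above both grey points for Ptgs1, Hpgd and Anxa1 and below them for Pla2g4a, Ptgs2 and Ptges2, whereas Ptgis, Ptger4 and the scarce Ptges separate by replicate number.

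The comparison of dexamethasone with vehicle asked how transcription responds to 2 h of glucocorticoid. Anxa1 and Ptgs1 were higher in both dexamethasone libraries than in both vehicle libraries, by 1.76-fold and 1.52-fold, and Ptgs2 and Pla2g4a were lower in both, at 0.732 and 0.696 of the vehicle level. None of these differences passed the test across all genes. Of the 9 genes, 8 had enough counts to be tested. In edgeR's quasi-likelihood fit 0 of them had a Benjamini-Hochberg adjusted p under 0.05, against 0.0376% of the 13285 genes tested. Likewise without a replicate term, the likelihood ratio test of edgeR, limma-voom and the Wald test of DESeq2 (which called 2.18% of all tested genes) also called 0 of the 8. At an unadjusted p under 0.05 there were 3 (5.78% of all tested genes), with Anxa1 and Ptgs1 higher (4.09% of all tested genes were higher by that rule) and Ptgs2 lower (1.69%). The groups did not overlap in 6 of the 8, where 27.9% of all tested genes did not overlap. Ptgs1, Hpgd and Anxa1 were the 3 with both dexamethasone libraries above (15.0% of all tested genes), and Pla2g4a, Ptgs2 and Ptges2 the 3 with both below (12.9%). The genes were chosen with earlier results of these data known, so these shares describe them and support nothing further. The median log2 fold change of the 8 was -0.10, beside -0.002 over all tested genes. In these bulk samples fewer nuclei that transcribe a gene and less RNA per nucleus cannot be told apart.

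**Figure D2:**
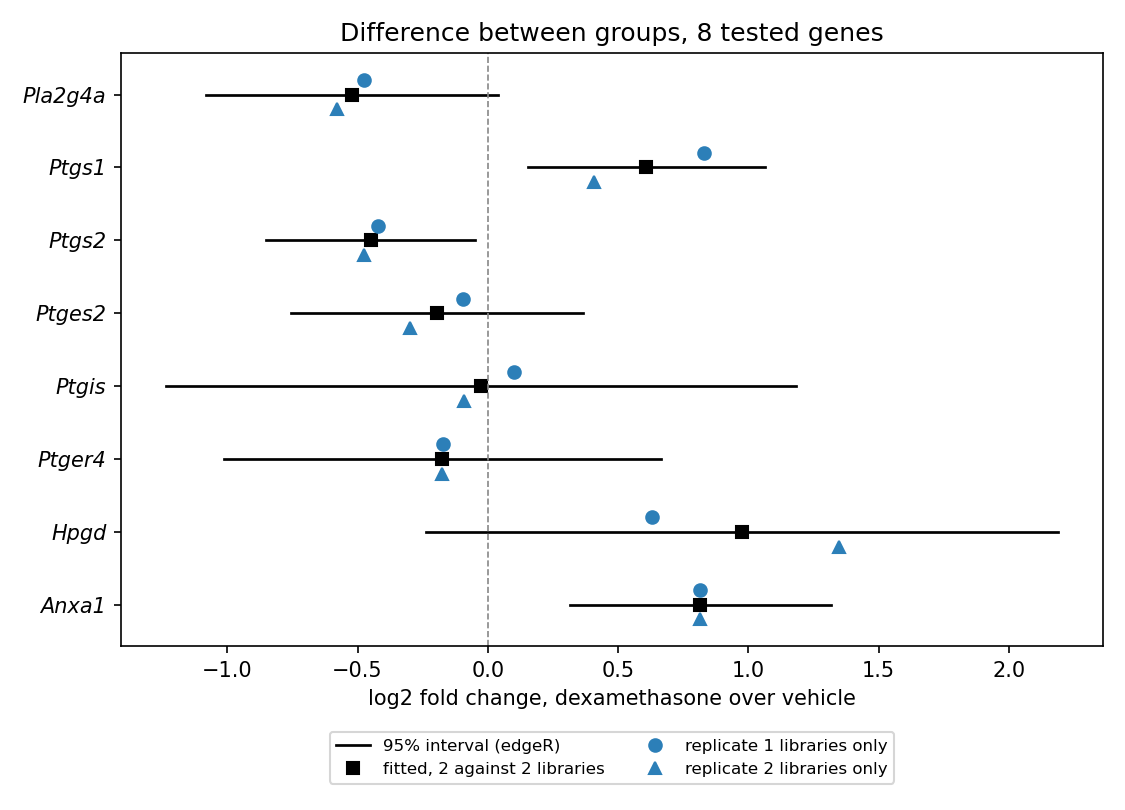
Log2 fold change of dexamethasone over vehicle for the 8 tested genes. Squares with lines are the edgeR fit with its 95% interval, and blue points compare the libraries of 1 replicate number only (log2 CPM with a prior count of 2). The intervals of Ptgs1, Ptgs2 and Anxa1 leave out 0, before any adjustment for the number of genes tested, and both blue points of Anxa1 lie at about 0.8.

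The upstream sequences of the 4 genes of the set with the lowest unadjusted p in edgeR are shown with the motif matches in place. Anxa1 and Ptgs1 hold 1 match each, and the windows shown for Ptgs2 and Pla2g4a hold 0. Pla2g4a has 2 RefSeq starts, of which the first is shown and the second holds matches given below. Each sequence is the 250 bases before the RefSeq start on GRCm38.p6, read 5′ to 3′ on the strand of the gene. Capitals mark matches to the motifs searched.
Anxa1 (chr19:20390672-20390921, minus strand): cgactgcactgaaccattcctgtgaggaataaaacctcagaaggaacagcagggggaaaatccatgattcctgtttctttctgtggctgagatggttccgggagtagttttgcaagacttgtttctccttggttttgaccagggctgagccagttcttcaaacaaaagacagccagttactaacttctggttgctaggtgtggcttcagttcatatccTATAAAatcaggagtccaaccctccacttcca
Ptgs1 (chr2:36230176-36230425, plus strand): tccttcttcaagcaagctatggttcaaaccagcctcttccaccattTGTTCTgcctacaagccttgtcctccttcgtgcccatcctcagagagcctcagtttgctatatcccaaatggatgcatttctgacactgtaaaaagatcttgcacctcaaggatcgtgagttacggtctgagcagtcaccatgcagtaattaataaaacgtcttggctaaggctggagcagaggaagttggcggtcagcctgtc
Ptgs2 (chr1:150099781-150100030, plus strand): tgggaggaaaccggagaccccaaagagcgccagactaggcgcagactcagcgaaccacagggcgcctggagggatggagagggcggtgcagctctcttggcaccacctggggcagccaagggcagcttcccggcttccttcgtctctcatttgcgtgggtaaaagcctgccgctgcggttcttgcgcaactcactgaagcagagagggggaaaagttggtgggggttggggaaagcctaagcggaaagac
Pla2g4a (chr1:149961291-149961540, minus strand): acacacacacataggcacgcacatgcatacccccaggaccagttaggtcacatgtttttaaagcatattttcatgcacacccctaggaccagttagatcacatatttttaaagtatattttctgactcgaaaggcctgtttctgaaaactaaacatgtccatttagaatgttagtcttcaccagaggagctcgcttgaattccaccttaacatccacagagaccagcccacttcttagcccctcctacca
The capitals in Anxa1 mark a TATA box (TATAAA) that begins 32 bases before the start, and those in Ptgs1 a half-site of the glucocorticoid response element, read on the opposite strand. The RefSeq table held 9 windows for 8 of the 9 genes, 2 of them for Pla2g4a, and Ptgis was without an entry. On both strands, the full element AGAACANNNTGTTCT was found in 0 of the 9 windows and in 0.00913% of 32851 windows of the same length. Its half-site AGAACA was found in 3 of 9 (Ptgs1, Ptges and the second start of Pla2g4a), against 16.1% of all windows. This half-site is part of the full element, so their matches can overlap. The NF-kappaB motif was found in 0 of 9 (7.25% of all windows) and TATAAA in 2 of 9 (Anxa1 and the second start of Pla2g4a, against 12.4%). This Pla2g4a match was read on the opposite strand, at position -200 from that start. A match describes letters in a window and no more.

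Among the enzymes that start the pathway, Pla2g4a (ENSMUSG00000056220) encodes the cytosolic phospholipase A2 that frees arachidonic acid. Vehicle 1 and 2 held 2120 and 3443 counts of it and dexamethasone 1 and 2 held 2448 and 5672, or 114 and 90.7 CPM against 81.7 and 60.7. The treated libraries were the lower ones, though dexamethasone 1 was close to vehicle 2. The group means were 102 ± 16.3 and 71.2 ± 14.8 CPM (SD, n = 2 each), and the log2 fold change was -0.52 (SE 0.212, 95% interval -1.08 to 0.04), with an unadjusted p of 0.0616 and an adjusted p of 0.918 in edgeR. Within replicate 1 the dexamethasone library stood at 0.718 of its vehicle library, and within replicate 2 at 0.669. Without dexamethasone replicate 2 the log2 fold change was -0.32.

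Ptgs1 (ENSMUSG00000047250) and Ptgs2 (ENSMUSG00000032487) encode the 2 cyclooxygenases, and their values went in opposite directions. Ptgs1 had 604 and 1572 counts with vehicle and 1729 and 5135 with dexamethasone. This corresponds to 32.4 and 41.4 CPM against 57.7 and 55.0, with means of 36.9 ± 6.38 and 56.3 ± 1.90 CPM (SD, n = 2 each). The dexamethasone libraries were nearly level with each other and above both vehicle libraries, of which the replicate 1 library was the lower. Its log2 fold change of 0.61 (SE 0.171, 95% interval 0.15 to 1.06) had an edgeR unadjusted p of 0.0192 and an adjusted p of 0.551. The ratio was 1.78 within replicate 1 and 1.33 within replicate 2.

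Ptgs2 had 422 and 809 counts with vehicle and 506 and 1429 with dexamethasone. Its levels were 22.6 and 21.3 CPM against 16.9 and 15.3, with means of 22.0 ± 0.932 and 16.1 ± 1.12 CPM (SD, n = 2 each). Libraries of a group lay close together here, and the gap between the groups exceeded the SD of either. The log2 fold change was -0.45 (SE 0.152, 95% interval -0.85 to -0.05), a level 26.8% lower after dexamethasone, with an edgeR unadjusted p of 0.0353 and an adjusted p of 0.740. The ratio of dexamethasone to vehicle was 0.746 within replicate 1 and 0.718 within replicate 2.

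The balance of the cyclooxygenase genes was therefore followed within each library, where scaling between libraries plays no part. Ptgs2 supplied 41.1% of the counts of both genes in vehicle 1 (95% Wilson interval 38.2% to 44.2%) and 34.0% in vehicle 2 (32.1% to 35.9%). In dexamethasone 1 it supplied 22.6% (21.0% to 24.4%) and in dexamethasone 2 21.8% (20.8% to 22.8%). These intervals cover counting error within 1 library only and leave out the spread between libraries. The reads carry no molecular identifiers, so repeated reads of 1 molecule cannot be told apart, and the intervals may be too narrow. Both dexamethasone shares lay below both vehicle shares, and the vehicle libraries differed from each other by more than their counting error. Counts of Ptgs1 per count of Ptgs2 went from 1.43 and 1.94 with vehicle to 3.42 and 3.59 with dexamethasone. The counts were not divided by length, and which gene led with vehicle depended on the scale. Ptgs1 led per kilobase of exon, and Ptgs2 led per kilobase of gene (2.76 and 2.60 against 1.48 and 1.90 CPM per kb). With 2 libraries against 2 an exact two-sided permutation test cannot give a p below 0.333, so no test of the Ptgs2 share was made.

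**Figure D3:**
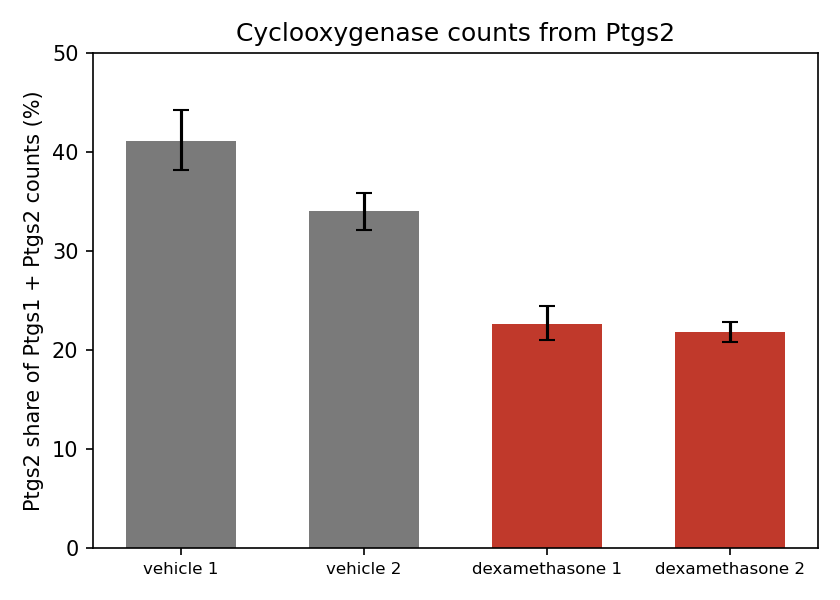
Share of cyclooxygenase counts that came from Ptgs2 in each library, in percent of Ptgs1 plus Ptgs2 counts, with 95% Wilson intervals for counting error. Both dexamethasone libraries stand near 22%, below the 2 vehicle libraries at 41.1% and 34.0%.

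Pla2g4a and Ptgs2, the 2 genes of the set that were lower by the most among those tested, are neighbours on chromosome 1 and point away from each other. In the GENCODE M21 annotation of GRCm38 (the submitters' processing notes name mm9, so positions are given on this build alone), Pla2g4a ends at its 5′ side at base 149961290 and Ptgs2 starts at base 150100031. Between them are 138740 bases with 0 other protein-coding genes and 3 further annotated genes, one of which is the long noncoding RNA gene Ptgs2os. Ptgs2os had 7.13 and 5.69 CPM with vehicle and 6.81 and 5.62 with dexamethasone. Its groups overlapped, and its log2 fold change was -0.04 (SE 0.235, 95% interval -0.67 to 0.58, edgeR adjusted p of 1). Ptgs2os was looked at after the values of its neighbours had been seen.

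The terminal synthases of the set either differed little between the group means or were too scarce to test. Ptgis (ENSMUSG00000017969), the prostacyclin synthase gene, had 900 and 3781 counts with vehicle and 1550 and 8740 with dexamethasone. Its levels of 48.3 and 99.6 CPM with vehicle and 51.7 and 93.6 CPM with dexamethasone overlapped between groups and differed by replicate number instead. The replicate 2 library was 2.06 times the replicate 1 library with vehicle and 1.81 times with dexamethasone. Its log2 fold change was -0.03 (SE 0.457), and its 95% interval of -1.24 to 1.18 leaves room for a change of more than 2-fold either way (edgeR adjusted p of 1). Leaving out vehicle replicate 2 or dexamethasone replicate 1 turned the sign, to 0.60 and 0.34.

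Ptges2 (ENSMUSG00000026820), a membrane-associated prostaglandin E synthase gene, had 117 and 229 counts with vehicle and 176 and 458 with dexamethasone. Its 6.28 and 6.03 CPM with vehicle were followed by 5.87 and 4.91 CPM with dexamethasone, a narrow gap with no overlap. A log2 fold change of -0.19 (SE 0.212, 95% interval -0.76 to 0.37) had an edgeR adjusted p of 1, and it was -0.07 without dexamethasone replicate 2 and -0.32 without dexamethasone replicate 1. Ptges (ENSMUSG00000050737), the inducible microsomal prostaglandin E synthase that is often paired with Ptgs2, was scarce. It had 1 and 12 counts with vehicle and 2 and 17 with dexamethasone, at most 0.316 CPM, and did not enter the test. The exact Poisson 95% interval of that highest value ran from 0.163 to 0.552 CPM, and the levels of vehicle 1 and dexamethasone 1 were below that of 3 counts.

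Ptger4 (ENSMUSG00000039942) encodes EP4, a receptor for prostaglandin E2 that raises cyclic AMP. It had 96 and 286 counts with vehicle and 137 and 623 with dexamethasone. Its levels were 5.15 and 7.54 CPM with vehicle and 4.57 and 6.67 with dexamethasone, so that the groups overlapped and both replicate 2 libraries stood above both replicate 1 libraries. Within each replicate number the dexamethasone library was slightly lower, at 0.888 and 0.885 of its vehicle library. The log2 fold change was -0.17 (SE 0.317, 95% interval -1.01 to 0.67, edgeR adjusted p of 1), and it was 0.14 without vehicle replicate 2 and 0.07 without dexamethasone replicate 1. The annotated Ptger4 gene shares 11676 bases with Ttc33 on the opposite strand, which had 1174 to 5379 counts. Whether the counting used strand is not stated, so reads of these overlapping genes may not be told apart.

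Ptgis and Ptger4 were the 2 of 8 tested genes in which both replicate 2 libraries exceeded both replicate 1 libraries (32.1% of all tested genes). Both replicate 2 libraries were below both replicate 1 libraries in 0 of the 8 and in 31.8% of all tested genes. The summed myotube markers ran the other way, with both replicate 1 libraries higher, as given above. Alox5, the gene of arachidonate lipoxygenase 5, was noticed after the values were seen. It had 26.7 and 28.1 CPM in the replicate 1 libraries and 7.22 and 8.19 in the replicate 2 libraries. The part of culture make-up in these differences was not tested.

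Hpgd (ENSMUSG00000031613), whose enzyme inactivates prostaglandins, was scarce but higher in both dexamethasone libraries. It had 25 counts in each vehicle library and 63 and 163 with dexamethasone, or 1.34 and 0.659 CPM against 2.10 and 1.75. The ratio of dexamethasone to vehicle was 1.57 within replicate 1 and 2.65 within replicate 2. Counting error alone leaves overlap in the first of these pairs, since the exact Poisson 95% interval of vehicle 1 reached 1.98 CPM and that of dexamethasone 1 began at 1.62 CPM. The log2 fold change of 0.98 (SE 0.458, 95% interval -0.24 to 2.19) did not pass the test (edgeR unadjusted p of 0.0915, adjusted p of 1). Leaving out vehicle replicate 2 gave 0.52, leaving out vehicle replicate 1 gave 1.54, and the value was 0.60 when all libraries were thinned to the smallest total.

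Anxa1 (ENSMUSG00000024659) encodes a calcium-dependent phospholipid-binding protein with anti-inflammatory actions. It had 709 and 1170 counts with vehicle and 2008 and 5063 with dexamethasone. Its levels were 38.0 and 30.8 CPM with vehicle and 67.0 and 54.2 with dexamethasone, with means of 34.4 ± 5.09 and 60.6 ± 9.03 CPM (SD, n = 2 each). The replicate 1 library was the higher of its group both times, and the groups were well apart. This gave a log2 fold change of 0.82 (SE 0.189, 95% interval 0.32 to 1.32), with an edgeR unadjusted p of 0.00932 and an adjusted p of 0.386. The dexamethasone library was 1.76 times its vehicle library within either replicate number. By p-value Anxa1 stood at rank 321 among the 13285 tested genes. The lncRNA gene 1500015L24Rik, which covers Anxa1 on the opposite strand, had 3 to 20 counts.

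The other annexins, relatives of Anxa1 that bind phospholipids in the presence of calcium, were measured beside it. Of 11 listed, 9 were tested, and 0 passed edgeR's adjusted threshold, while an unadjusted p under 0.05 was reached by 3 higher and 0 lower genes (4.09% and 1.69% of all tested genes). In 5 of the 9 both dexamethasone libraries were above both vehicle libraries, and in 0 were both below (15.0% and 12.9% of all tested genes). Their median log2 fold change was 0.14. Anxa4 had 101 and 105 CPM with vehicle and 241 and 200 with dexamethasone, a log2 fold change of 1.10 (SE 0.146, edgeR adjusted p of 0.146). Anxa3 had 94.4 and 91.0 CPM against 154 and 150, a log2 fold change of 0.71 (SE 0.115, edgeR adjusted p of 0.202). DESeq2's Wald test called both Anxa4 (adjusted p of 4.8e-05) and Anxa3 (0.0139) higher. Anxa11 stood at 79.3 and 88.7 CPM against 127 and 108. Anxa6, the annexin with the highest mean CPM, was at 194 in both vehicle libraries and at 224 and 223 CPM with dexamethasone, a log2 fold change of 0.20 (SE 0.115, edgeR adjusted p of 1). In Anxa2, Anxa7, Anxa8 and Anxa9 the groups overlapped.

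Of 6 listed partners of annexins 3 were tested, and 0 passed edgeR's adjusted threshold, an unadjusted p under 0.05 being reached by 2 higher genes (4.09% of all tested genes) and 0 lower ones (1.69%), with a median log2 fold change of 0.51. S100a10, which forms a complex with annexin A2, had 38.6 and 30.8 CPM with vehicle and 88.3 and 67.1 with dexamethasone. At a log2 fold change of 1.17 (SE 0.210) it had an adjusted p of 0.238 in edgeR, and it was called by DESeq2's Wald test (adjusted p of 0.00117). S100a11, a partner of annexin A1, had 6.28 and 6.06 CPM with vehicle and 8.37 and 9.14 with dexamethasone, a log2 fold change of 0.51 (SE 0.183, edgeR adjusted p of 0.808). S100a6 overlapped between groups, at 14.4 and 11.3 CPM with vehicle and 20.8 and 9.84 with dexamethasone (log2 fold change 0.25, SE 0.405, edgeR adjusted p of 1). For the formyl peptide receptors, through which annexin A1 signals, Fpr1 and Fpr3 were listed at 0 in all libraries and Fpr2 had 6 counts or fewer.

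**Figure D4:**
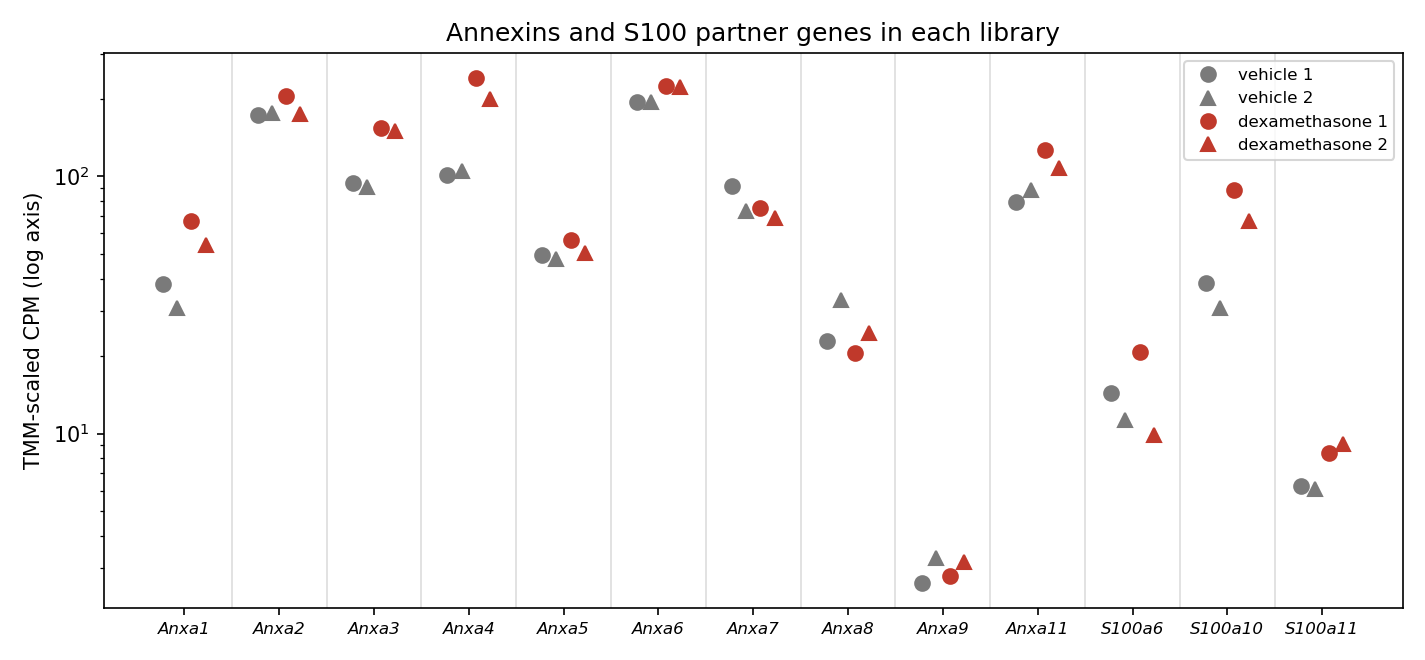
Level of Anxa1, the 9 other tested annexins and the 3 tested S100 partner genes in each library, in TMM-scaled CPM on a log axis (symbols and colours as in the plot of the 9 genes). Both dexamethasone libraries lie above both vehicle libraries for Anxa1, Anxa3, Anxa4, Anxa5, Anxa6, Anxa11, S100a10 and S100a11.

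The rest of the pathway was described through 5 further lists. Of 21 other phospholipase A2 genes 12 were tested, with 0 past edgeR's adjusted threshold and a median log2 fold change of -0.06. Plaat3, a phospholipase and acyltransferase gene, was the 1 with an unadjusted p under 0.05, and it was lower (1.69% of all tested genes). It had 34.4 and 36.1 CPM with vehicle and 22.8 and 23.9 with dexamethasone, which was 0.662 and 0.661 of vehicle within replicates 1 and 2 (log2 fold change -0.60, SE 0.136, edgeR adjusted p of 0.373). Pnpla8, with the highest mean CPM of the list, had 78.2 and 57.5 CPM with vehicle and 93.9 and 71.5 with dexamethasone, with overlap. Pla2g4a was not the only phospholipase at its level: per kilobase of exon Pla2g6, which encodes a calcium-independent enzyme, had 11.7 and 16.0 CPM with vehicle against 17.8 and 14.2 for Pla2g4a, and per kilobase of gene 1.51 and 2.06 against 0.864 and 0.689.

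Of 11 other prostanoid synthase genes 7 were tested and 0 passed, with a median log2 fold change of -0.006. Ptges3, which encodes a cytosolic prostaglandin E synthase also known as the co-chaperone p23, had 66.1 and 65.0 CPM with vehicle and 55.8 and 57.5 with dexamethasone. Its groups did not overlap, and its log2 fold change was -0.21 (SE 0.119, edgeR adjusted p of 1). The genes of the hematopoietic prostaglandin D synthase, Hpgds, and of thromboxane synthase, Tbxas1, had at most 2 and 28 counts in any library.

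Of 10 other prostanoid receptor genes, the nuclear receptors Pparg and Ppard included, 6 were tested and 0 passed edgeR's adjusted threshold. A negative log2 fold change was found in 5 of the 6, beside 6684 of all 13285 tested genes, and their median was -0.16. Among these negative ones, the groups overlapped in Pparg, Ppard and Ptger1. Ptgfr, the receptor gene for prostaglandin F2 alpha, had 6.17 and 4.82 CPM with vehicle and 2.17 and 2.40 with dexamethasone. Its counts of 115, 183, 65 and 224 in vehicle 1, vehicle 2, dexamethasone 1 and dexamethasone 2 gave a log2 fold change of -1.26 (SE 0.260), with an edgeR unadjusted p of 0.00599 and an adjusted p of 0.321. DESeq2's Wald test called it lower (adjusted p of 0.0427). Per kilobase of exon Ptgfr had 0.910 and 0.712 CPM with vehicle, close to Ptger4, and 0.320 and 0.354 with dexamethasone. Ppard, with the highest mean CPM of the list, had 64.9 and 103 CPM with vehicle and 62.3 and 91.3 with dexamethasone. The other prostaglandin E receptor genes were lower than Ptger4 per kilobase of exon in every library, with Ptger1 at 0.238 to 0.351 CPM per kb and Ptger2 and Ptger3 at no more than 0.0762. Per kilobase of gene this order changed for Ptger1, which had 0.214 to 0.316 CPM against 0.122 to 0.201 for Ptger4.

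Of 5 genes of prostanoid transport and breakdown all were tested and 0 passed (median log2 fold change 0.09). Abcc4, an exporter of prostaglandins, had 60.9 and 69.5 CPM with vehicle and 45.3 and 60.2 with dexamethasone, with a log2 fold change of -0.31 (SE 0.191, edgeR adjusted p of 1). Of 14 genes of the lipoxygenase and leukotriene arm 3 were tested and 0 passed. Lta4h, which encodes leukotriene A4 hydrolase, had 32.7 and 30.6 CPM with vehicle and 30.9 and 26.8 with dexamethasone. Over all 7 lists, annexins and partners included, 45 of 78 genes were tested. In edgeR 0 passed and an unadjusted p under 0.05 was reached by 5 higher and 2 lower genes (4.09% and 1.69% of all tested genes). DESeq2's Wald test called 4, against 2.18% of all tested genes. Their median log2 fold change was 0.006.

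Genes with the most similar pattern were sought for Ptgs2 and Anxa1 among 11629 tested genes with at least 20 counts in every library, by the distance between log2 CPM values centred on each gene over the 4 libraries. With 4 points a small distance says little beyond a similar fold change and spread. The nearest to Ptgs2 were 4732491K20Rik (distance 0.0261), Shox2 (0.0480) and Tg (0.0593). Tg, for example, had 118 and 116 CPM with vehicle and 88.2 and 82.6 with dexamethasone. The nearest to Anxa1 were Adam12 (0.0347), Hipk2 (0.0782) and Pon3 (0.0854), and Adam12 had 145 and 117 CPM with vehicle and 247 and 206 with dexamethasone.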

How the data were processed

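Groups, replicate numbers and table columns were taken from the sample titles. The authors deposited raw read counts per gene, 1 column per library. The submitters' processing notes name TopHat2 2.0.13, SAMtools 1.1, HTSeq 0.6.1, DESeq2 1.18.1 and mm9, with no role stated. Per the labels' protocols the libraries were made with a stranded total RNA kit and, in another sentence, a stranded mRNA kit, so whether RNA was selected by its poly(A) tail is not settled. Whether introns or strand were counted is not given in the sources used here. Of 23333 rows, 51 repeated an earlier gene with the same counts and were used once, and 0 lacked a name. From these counts, genes were filtered with filterByExpr (minimum count 10, minimum total 15) and tested with edgeR 4.0.16 in R 4.3.3 (quasi-likelihood, TMM, group as the only term, 2 residual and 2.56 prior degrees of freedom), two-sided, with Benjamini-Hochberg adjustment over all 13285 tested genes at 0.05. Lengths came from GENCODE M21 (GRCm38), by Ensembl identifier, and upstream sequences from RefSeq (GRCm38.p6), by symbol. Alternatives used other scalings, filters and tests (DESeq2 1.42.0, limma 3.58.1), the replicate number as a block, thinning, and each library left out. Named were the 9 genes, list genes with an unadjusted p under 0.05 and no overlap, the list gene with the highest mean CPM, and the 3 nearest patterns. Other list and marker genes in the text were chosen after their values were seen. The members and lists were chosen with earlier results of these data known.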

Additional observations from a re-analysis of the deposited data

How the results depend on the processing

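Of 112 refitted log2 fold changes of the 8 genes, 104 kept their direction and their side of the threshold, 4 became stronger and 4 reversed. The reversals came from leaving out 1 library, where the lone library of a group is assumed to vary like the others: Ptgis ran from -0.52 to 0.60 and Ptger4 from -0.48 to 0.14. With the replicate number as a block, 4 of the 8 genes passed: Anxa1 (0.82, edgeR adjusted p 0.000522), Pla2g4a (-0.53, 0.00257), Ptgs2 (-0.45, 0.0116) and Ptgs1 (0.60, 0.0136). So did 9 genes of the pathway lists. Of all 13285 tested genes, this block on the replicate number called 913 higher and 768 lower, against 5 and 0 without it. The labels do not say that the number marks a shared day, and 2 pairs cannot establish it. Differences between the replicate numbers correlated between groups (r = 0.734 across tested genes), and the block leaves 1 residual degree of freedom. Over all genes, against 5 higher and 0 lower (543 and 225 with an unadjusted p under 0.05), DESeq2's Wald test called 236 and 53, the likelihood ratio test called 243 and 45, no filter beyond 1 count gave 23 higher, and limma-voom 0 (540 up and 231 down at an unadjusted p under 0.05). DESeq2's Wald test and the likelihood ratio test each called 4 genes of the pathway lists. Without 1 library the calls ran from 4 to 84 higher and from 0 to 109 lower, the most without vehicle replicate 2, and 0 of the 8 genes passed. The cause was not tested. The counts of pathway genes by setting and the thinned cyclooxygenase shares were added after seeing the data. Thinning moved the Ptgs2 share of vehicle 2 from 34.0% to 31.0%. Scaling by library size only moved 7 of 36 CPM values by more than the SD of their group, and the other scalings moved 0. Ptges, at 1 to 17 counts, and Hpgd, at 25 with vehicle, are limited by depth.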
